A study of Mus musculus with 20 samples.

Results

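Oxidative phosphorylation subunits are the nuclear-encoded proteins that build the respiratory chain and the ATP synthase of mitochondria. The members described here were all genes on the array whose name begins with Nduf, Cox4 to Cox8, Uqcr, Sdha to Sdhd or Atp5, each read from its brightest probe, the one with the highest mean processed Cy5 signal. This name rule found 82 genes among 27962 on the array, read by 113 of 41174 gene probes. By complex, 35 members belong to complex I, 4 to complex II, 7 to complex III, 17 to complex IV and 15 to complex V. The remaining 4 share the names without being subunits: Ndufaf1 (a complex I assembly factor), Cox7a2l (a factor that joins complexes into supercomplexes), Cox4nb (named for its place beside Cox4i1) and Atp5s (a coupling factor of the ATP synthase).

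RNA came from XY mouse gonads at embryonic day 11.5, staged at 17 to 21 tail somites and separated from the mesonephroi, with 1 gonad pair per array. The 4 groups of 5 arrays were the inbred strains C57BL/6J and 129S1/SvImJ and their reciprocal hybrids, labelled (B6x129S1)F1 and (129S1xB6)F1; the labels name no transgene and no treatment for any of them. Each gonad sample was labelled with Cy5 and hybridised beside a common Cy3 reference, a pool of 4 XY and 3 XX gonad pairs with 4 XY and 2 XX whole embryos from a Sox9-ECFP(C57BL/6J) x CD-1 cross. Values are log2 ratios of gonad over this pool, so a value of 0 means equal processed signals and a difference of 1 between groups is a doubling. No dye swap was made, so in the ratio to the pool itself a dye effect cannot be told apart from abundance; a difference between groups sets arrays of the same orientation against each other.

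Complex I (NADH dehydrogenase) and complex II (succinate dehydrogenase) pass electrons to ubiquinone, complex III hands them to cytochrome c, and complex IV (cytochrome c oxidase) passes them to oxygen. Complexes I, III and IV pump protons, and complex V (ATP synthase) makes ATP from the returning flow. Cox7c is one of the small nuclear-encoded subunits that surround the catalytic core of complex IV, and the core itself is encoded by mitochondrial DNA. Several complex IV subunits come in isoforms, with forms characteristic of heart and skeletal muscle (Cox6a2, Cox7a1, Cox8b), of testis (Cox6b2, Cox8c) or of lung (Cox4i2).

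The results below turn on 5 members and on 1 further probe, and parts of their 60-base probes are shown because the probe sequence decides which RNA each value reads. The files name the further probe TC1410591 and describe it as cytochrome c oxidase polypeptide VIIc, the product of Cox7c; its name left it outside the rule, and it was found by its description after its values could be seen. The stretches below are the first 30 bases, except that Ndufa11 shows 30 of the 50 bases common to its 2 probes and Ndufb10 shows its last 30 bases, with the poly(A) signal hexamer in capitals.
Cox7c: aaataaggatatttaattcatccctttaac
TC1410591: tgaaggtcattggaaacaaaagaagagggc
Ndufa11: gtatggcgatggtgaagcggttctttgaat
Sdhb: aatgcagacgtacgaggtggatctgaataa
Cox6b2: ggaactttcccgggcaaaatatgaccttgc
Ndufb10: ttcattccactgctaaaAATAAAgtcaaga
The probes named Cox7c and TC1410591 had no run of more than 6 bases in common on either strand, so they read different stretches of sequence. Their GC contents were 28.3% and 45%. The 2 probes of Ndufa11 overlapped by 50 of 60 bases and are therefore close to a repeat of 1 measurement. Among the probes used for the members, only that of Ndufa8 shared a run of 25 bases with a probe of another name, which the files describe as Ndufa8 too. The probes were not aligned to the mouse genome here, and hybridisation of RNA from pseudogenes or paralogs cannot be told apart from that of the named gene.

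Of the 82 members, 81 were tested, because their probe cleared Feature Extraction's well-above-background criterion in the gonad channel on 4 or more of the 5 arrays of some group; Cox8c did not. Each array held 43379 gene spots, 101 spots with outlier flags over all arrays were left out, and none was saturated. Between 77.9% and 88.0% of probes were well above background per array, and the median background-subtracted Cy5 signal ranged from 87.3 to 207. The arrays lay on 5 slides: slide 1 held only inbred strains, slide 5 only hybrids, and the others all 4 groups. Slide 5 had the lowest mean of these Cy5 medians, 95.5, against 149 to 187 on the other slides. All 5 markers of gonadal somatic cells (Gata4, Wt1, Nr5a1, Lhx9 and Emx2) averaged above the pool. With 5 arrays a group, p-values measure the spread between these arrays, each of 1 gonad pair, and their number limits the precision. Replicates H1, H2, H3 and H4 of C57BL/6J share a sample-name letter, and K2 has another. Some replicates of the other groups share letters too. The letter may mark a litter, but the labels do not say so.

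Between the strains, 5 of the 81 members differed: Cox7c and Ndufa11 were lower in C57BL/6J than in 129S1/SvImJ, and Cox6b2, Sdhb and Ndufb10 were higher. The test was limma's moderated linear model over all arrays with Benjamini-Hochberg adjustment over the 24057 genes tested and an adjusted p threshold of 0.05. These 5 are 6.17% of the members, next to a background of 5.56% of all genes called in this comparison (1337, of which 781 were higher and 556 lower in C57BL/6J), so the members as a set were called about as often as genes in general. The median strain difference of the members was -0.06 on the log2 scale, next to 0.01 over all genes tested, with 25 members above 0 and 56 below. Complex IV held 2 of the called members, complex I 2 and complex II 1; no member of complex III or complex V was called, where 0 of 7 and 1 of 15 passed at an unadjusted p of 0.05.

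Cell type markers differed between the strains too. The mean log2 ratio of the 5 somatic markers was 2.91 to 3.49 over the C57BL/6J arrays and 2.29 to 2.88 over the 129S1/SvImJ arrays, without overlap; 4 of the 5 were higher in C57BL/6J by value, and Emx2 passed the test (1.04 ± 0.24 SE, adjusted p = 0.0102 by limma). The 4 endothelial markers (Pecam1, Cdh5, Kdr and Tek) all had lower values in C57BL/6J, where their mean was 0.50 to 0.80, next to 0.79 to 0.95 in 129S1/SvImJ, and none passed. Of the 5 germ cell markers (Pou5f1, Dppa3, Ddx4, Dazl and Kit), 1 had a higher value in C57BL/6J and none was called. Their mean was 2.27 to 3.30 over the C57BL/6J arrays and 3.21 to 3.64 over the 129S1/SvImJ arrays. Among 4 markers of mesonephros and duct (Pax2, Pax8, Lhx1 and Gata3), 3 had higher values in C57BL/6J and the other was called lower by limma. No erythroid, macrophage or muscle marker was called. The part of these markers in the members' values was not tested. In whole gonads, fewer cells of a type and less RNA per cell cannot be told apart.

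**Figure D1:**
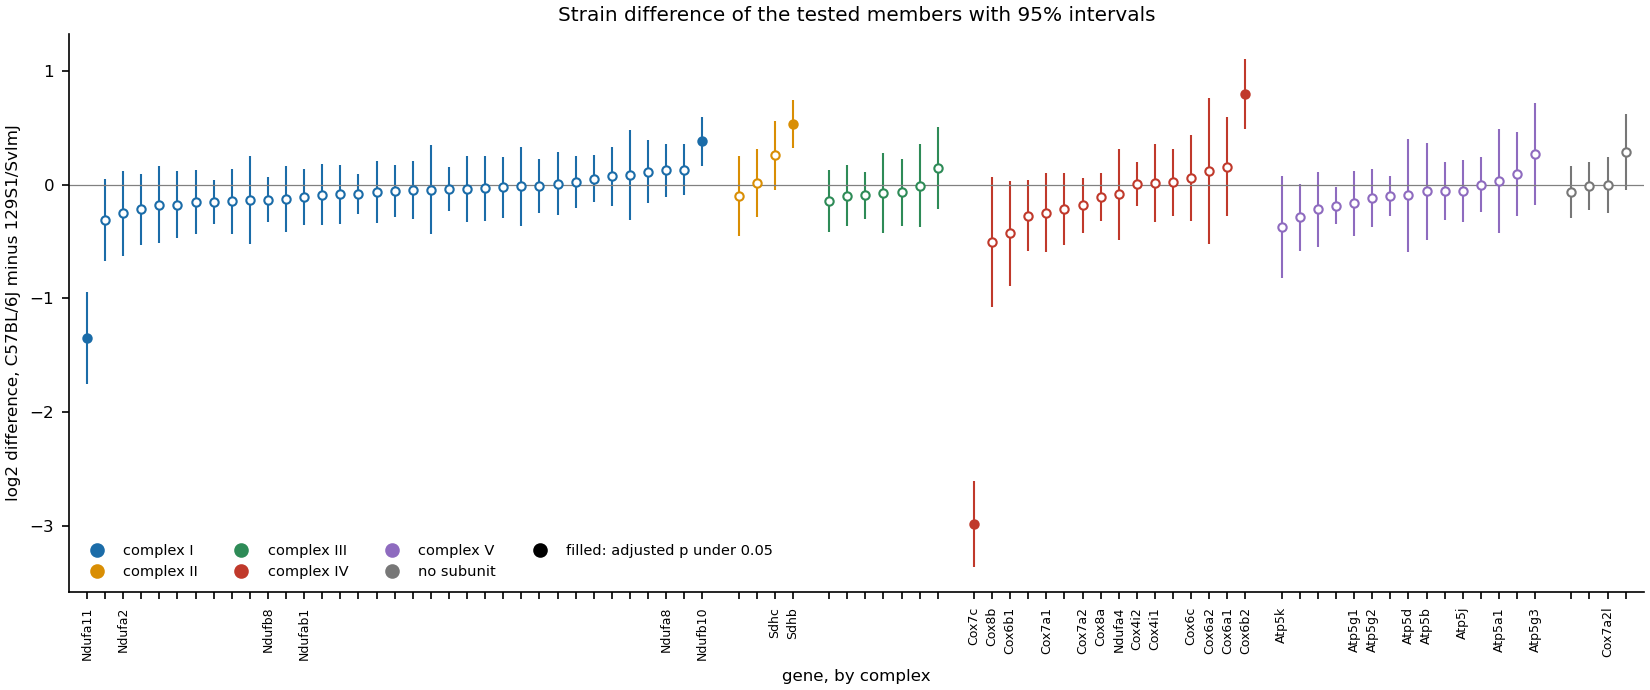
Difference in log2 ratio, C57BL/6J minus 129S1/SvImJ, for the 81 tested members (points, with 95% intervals as bars), grouped by complex along the horizontal axis, where a selection of members is labelled; filled points passed an adjusted p of 0.05. Cox7c at -2.98 and Ndufa11 at -1.35 lie below all others, Cox6b2 (0.80), Sdhb (0.54) and Ndufb10 (0.38) are the filled points above 0, and the open points lie between -0.50 and 0.29.

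Cox7c had the largest strain difference of any member. In C57BL/6J its log2 ratios were -1.75, -1.72, -1.98, -1.49 and -1.29, and in 129S1/SvImJ they were 1.80, 1.33, 1.68, 1.08 and 0.82. All C57BL/6J arrays were below the pool and all 129S1/SvImJ arrays above it, with no overlap. The fitted difference was -2.98 ± 0.18 (SE), a 7.91-fold lower signal in C57BL/6J with an adjusted p of 6.05e-10 by limma. The gap lay in the gonad channel: mean processed Cy5 signals were 1686 ± 570.3 (SD, n = 5) in C57BL/6J and 12810 ± 4274 in 129S1/SvImJ, while the pool's Cy3 signals at the same spots were 5092 ± 954 and 4890 ± 935. Within the slides that held both strains, the difference was -3.30 on slide 1, -3.05 on slide 2, -2.97 on slide 3 and -2.30 on slide 4. Slides 2, 3 and 4 held 4 arrays each, 1 from every group, so their differences compare single arrays. These arrays are also part of the fit, and the same holds for the slide differences given below.

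The probe TC1410591, described as the same gene product, went the opposite way. Its log2 ratios were 0.76, 0.54, 0.58, 1.17 and 0.53 in C57BL/6J. In 129S1/SvImJ they were -0.70, -1.41, -0.15, -1.19 and -1.61. Every C57BL/6J array was above the pool and every 129S1/SvImJ array below it. The fitted difference was 1.73 ± 0.22 (SE), or 3.31-fold, with an adjusted p of 3.17e-05 by limma. A lower Cox7c transcript level in C57BL/6J therefore rests on 1 probe, and the only other probe described as Cox7c does not show it. RefSeq also lists a transcribed pseudogene, Cox7c-ps1, among the mouse genes, and which transcript each probe reads was not tested.

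**Figure D2:**
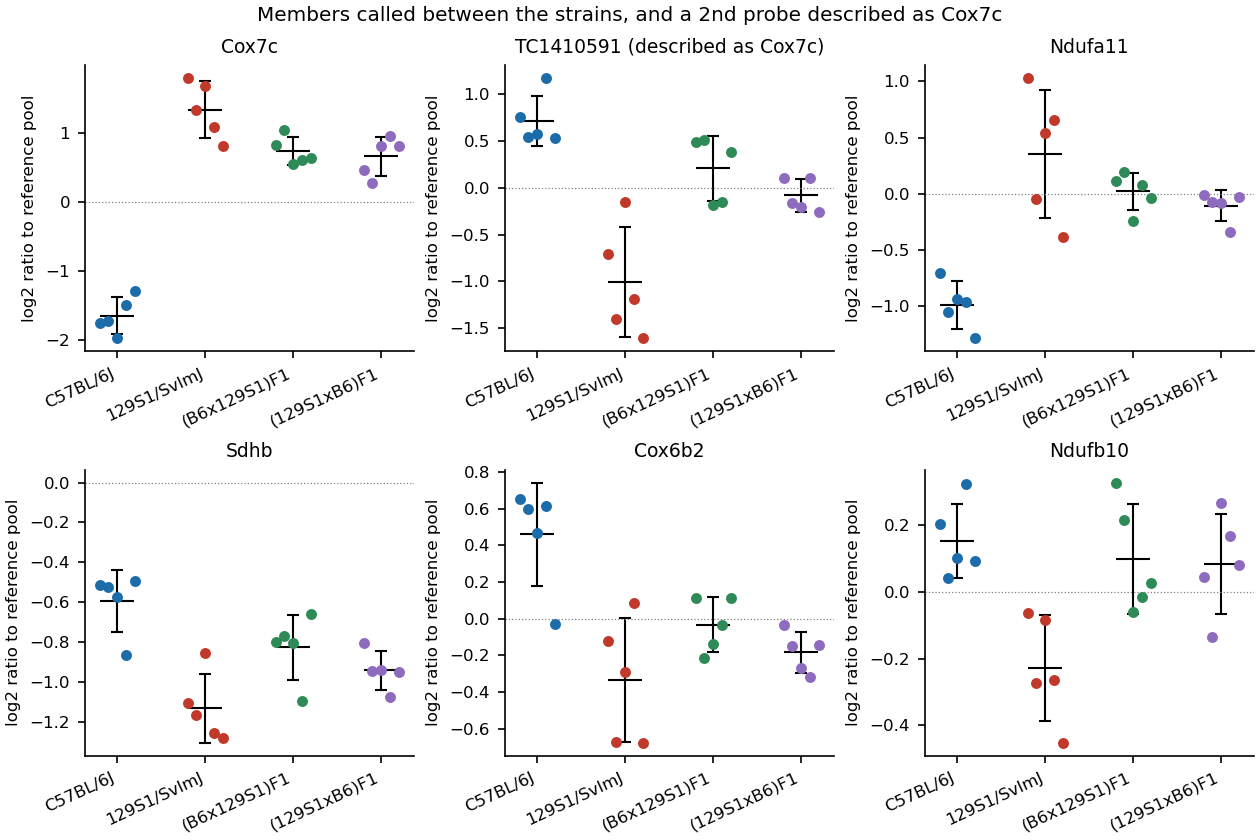
Log2 ratio of gonad over reference pool on every array (points) for the 5 members called between the strains and for the probe TC1410591, in the 4 groups of 5 arrays; horizontal marks with bars are group means ± SD, and each panel has its own vertical scale. Cox7c and TC1410591 point in opposite directions between the strains, and in both the hybrid means lie between the parental ones.

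Ndufa11, an accessory membrane subunit of complex I, was the other member lower in C57BL/6J. Its ratios there were -0.71, -1.05, -0.94, -0.96 and -1.29. In 129S1/SvImJ they were 1.03, -0.05, 0.54, 0.65 and -0.39, a spread of SD 0.57 (n = 5), next to 0.21 in C57BL/6J. The strains did not overlap, the nearest arrays being -0.39 in 129S1/SvImJ and -0.71 in C57BL/6J. The difference was -1.35 ± 0.19 (SE), 2.54-fold lower in C57BL/6J (adjusted p = 1.01e-04 by limma). The second probe of the gene gave -1.26 ± 0.20, which adds little, given the 50 bases it shares with the first. Within slides 1 to 4 the difference was -1.66, -1.01, -1.83 and -0.57, so its direction was the same on each while its size varied.

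In complex II, Sdhb, the iron-sulfur subunit of succinate dehydrogenase, had a 1.45-fold higher signal in C57BL/6J, with a difference of 0.54 ± 0.10 (SE) and an adjusted p of 0.00201 by limma. The C57BL/6J ratios were -0.51, -0.52, -0.57, -0.86 and -0.49, and the 129S1/SvImJ ratios were -1.11, -1.16, -0.85, -1.25 and -1.28. The strains overlapped only through the 129S1/SvImJ array at -0.85 and the C57BL/6J array at -0.86, and both lay below the pool throughout. Within slides 1 to 4 the difference was 0.64, 0.64, 0.36 and 0.42. The other subunits did not pass the test: the flavoprotein Sdha differed by -0.10 ± 0.17 (SE), and the membrane anchors Sdhc and Sdhd by 0.26 ± 0.15 and 0.01 ± 0.14.

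Cox6b2, the testis isoform of subunit VIb of complex IV, differed by 0.80 ± 0.15 (SE), 1.74-fold in favour of C57BL/6J with a limma adjusted p of 0.0017. Its C57BL/6J ratios were 0.65, 0.60, 0.47, 0.61 and -0.03, and its 129S1/SvImJ ratios were -0.12, -0.67, -0.29, 0.08 and -0.68. Replicate K2 of C57BL/6J stood apart from the other 4 arrays of its group and fell among the 129S1/SvImJ values. It is also the only array of its group without the sample-name letter H. Without it the difference was 0.92 and rested, for C57BL/6J, on arrays of that 1 letter. The strain call was kept in a fit with the letter, a possible litter, as a random block. No letter is shared between groups, and the part of the letter in this gap was not tested separately. The widely expressed isoform Cox6b1 differed by -0.43 ± 0.22 (SE; adjusted p = 0.388 by limma) and did not pass the test.

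Ndufb10, an accessory subunit of the membrane arm of complex I, exceeded its 129S1/SvImJ level in C57BL/6J by 0.38 ± 0.10 (SE), or 1.30-fold, at an adjusted p of 0.0294 by limma. Its ratios were 0.20, 0.04, 0.10, 0.32 and 0.09 in C57BL/6J and -0.06, -0.27, -0.08, -0.27 and -0.45 in 129S1/SvImJ. The strains did not overlap. This call was the least stable of the 5 and was lost in 9 of 32 alternative fits. Among these 9 were the fits without any 1 of the 129S1/SvImJ replicates A4, D4 and G3 or the C57BL/6J replicates H1 and H4. There the difference was 0.33 to 0.37 and the adjusted p by limma 0.0651 to 0.0765. The rest of the 9 are not listed here, and the highest adjusted p over the 32 fits was 0.0847 by limma.

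The other 76 tested members showed no strain difference past the threshold. Their differences ran from -0.50 (Cox8b) to 0.29 (Atp5s), and for 75 of them the 95% interval lay within a doubling either way; the exception was Cox8b, with -1.07 to 0.07, whose probe was well above background on 4 of 5 C57BL/6J arrays and on all 5 of 129S1/SvImJ. At an unadjusted p of 0.05, 6 members passed (7.41%, next to 14.8% of all genes), the sixth being Atp5o at -0.18 ± 0.08 (SE; 1 of its 129S1/SvImJ spots was left out by an outlier flag, so n = 4 there). Arrays of the strains did not overlap for 6 members (7.41%, next to 5.26% of all genes): Atp5o, Cox7c, Cox8b, Ndufa11 and Ndufb8 were lower and Ndufb10 higher in C57BL/6J. In complex I the median difference was -0.05. In complex III the range was -0.14 (Uqcrh) to 0.15 (Uqcrc1), and in complex V -0.37 (Atp5k) to 0.27 (Atp5g3). For 25 members with several probes, each other probe's strain difference lay within 0.5 of the brightest probe's, but 11 of the 25 had a probe of opposite sign. Some of these other probes were dim. Those of Ndufs1 and Ndufs4 were well above background on 0 and 1 of the 20 arrays. The other Ndufb8 probe had a mean processed Cy5 signal of 296.5, next to 68100 for the brightest. The widest gaps were those of Ndufb8 (-0.13 on the brightest probe, 0.36 on the other), Ndufab1 (-0.11, with the others from 0.04 to 0.35) and Ndufa12 (0.05, with the others from -0.38 to -0.15), so the sign for these members depends on the probe. Ndufa12 was chosen for this after its values were seen.

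In the hybrids, Cox7c, Ndufa11 and Cox6b2 moved away from the C57BL/6J value. For Cox7c the (B6x129S1)F1 ratios were 0.83, 1.05, 0.55, 0.61 and 0.64 and the (129S1xB6)F1 ratios 0.46, 0.28, 0.81, 0.95 and 0.82. All 10 hybrid arrays were above every C57BL/6J array, and the upper ones overlapped the lower 129S1/SvImJ arrays. The mean of both hybrid groups was 5.07-fold higher than C57BL/6J (2.34 ± 0.16, adjusted p = 2.06e-08 by limma). It was 1.56-fold lower than 129S1/SvImJ (-0.64 ± 0.16, adjusted p = 0.0395).

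For Ndufa11, the hybrid ratios were 0.11, 0.19, -0.24, 0.08 and -0.04 in (B6x129S1)F1 and -0.01, -0.07, -0.08, -0.34 and -0.03 in (129S1xB6)F1. They were all above the C57BL/6J arrays and inside the 129S1/SvImJ range. The hybrid mean exceeded C57BL/6J by 0.95 ± 0.17 (1.93-fold, adjusted p = 0.00292 by limma). For Cox6b2, hybrid ratios ran from -0.22 to 0.12 in (B6x129S1)F1 and from -0.32 to -0.04 in (129S1xB6)F1, below the C57BL/6J arrays other than K2. The hybrid mean was 1.48-fold lower than C57BL/6J (-0.57 ± 0.13, adjusted p = 0.0185 by limma); that call was lost in 7 of 32 alternative fits, among them those without any 1 of H1, H2, H3 and H4 (adjusted p 0.0522 to 0.0712) and with slide as a block (-0.40, adjusted p = 0.215).

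Sdhb in the hybrids lay between the strains. Its ratios were -0.80, -0.77, -0.80, -1.09 and -0.66 in (B6x129S1)F1 and -0.80, -0.94, -0.94, -1.07 and -0.95 in (129S1xB6)F1. All lay below the C57BL/6J arrays other than H4 and above the 129S1/SvImJ arrays other than A6. The hybrid mean was below C57BL/6J by -0.29 ± 0.09 (SE; adjusted p = 0.109 by limma) and above 129S1/SvImJ by 0.25 ± 0.09 (adjusted p = 0.222), and neither difference passed the test. For Ndufb10 the hybrid ratios ran from -0.06 to 0.33 in (B6x129S1)F1 and from -0.13 to 0.27 in (129S1xB6)F1, overlapping the C57BL/6J range. Its hybrid mean differed from C57BL/6J by -0.06 ± 0.09 (SE; adjusted p = 0.861 by limma) and from 129S1/SvImJ by 0.32 ± 0.09 (adjusted p = 0.0801).

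Against C57BL/6J Cox7c, Ndufa11 and Cox6b2 were the 3 of 81 members called (3.70%), next to 2.11% of all genes. Against 129S1/SvImJ, Cox7c was the single member called (1.23%), next to 1.64% of all genes, and the call was lost in 15 of 32 alternative fits. Among these, leaving out any 1 of A3, A4, A6, C2, C4, E1, F2, L1, L2, M6 and H2 gave differences between -0.53 and -0.66 with adjusted p values by limma between 0.0503 and 0.155. The highest difference of a member that did not pass against C57BL/6J was that of Cox7a1, the heart and muscle isoform of subunit VIIa (0.55 ± 0.15, adjusted p = 0.0528 by limma). Its ratios were 0.45, -0.08, 0.21, 0.01 and 0.29 in C57BL/6J and from 0.49 to 1.00 over the hybrids, which did not overlap. The comparisons with the strains and with their midpoint share the hybrid arrays, so their values are not independent. Germ cell markers differed along with the same contrast: the mean log2 ratio of Pou5f1, Dppa3, Ddx4, Dazl and Kit, all 5 above the pool, was 3.64 to 4.51 over the (129S1xB6)F1 arrays and 3.66 to 4.49 over the (B6x129S1)F1 arrays, next to 2.27 to 3.30 for C57BL/6J and 3.21 to 3.64 for 129S1/SvImJ. By value, 5 of these 5 genes were higher in the hybrids than in C57BL/6J and 4 of 5 higher than in 129S1/SvImJ. Only 1 of the 5 was called by limma in each of these comparisons. The somatic markers had lower values in the hybrids than in C57BL/6J in 5 of 5 genes, with a median difference of -0.44 and none called. Their mean was 2.43 to 3.02 over the (B6x129S1)F1 arrays and 2.79 to 3.01 over the (129S1xB6)F1 arrays. Of the 4 mesonephros and duct markers, 2 had higher values in the hybrids than in C57BL/6J, and 1 of these was called by limma. All 4 endothelial markers had higher values in the hybrids than in C57BL/6J (median difference 0.14). All 4 erythroid and all 4 macrophage markers had lower ones (medians -0.07 and -0.09). Muscle markers were higher in 4 of 5 genes (median 0.03). No endothelial, erythroid, macrophage or muscle marker was called against C57BL/6J. The part of these lists in the members' values was not tested.

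Set against the midpoint of the strains on the log2 scale, Cox7c was higher in the hybrids by 0.85 ± 0.13 (SE; 1.80-fold, adjusted p = 0.00258 by limma). It was 1 of 81 members called (1.23%), next to 0.324% of all genes. The other members lay between -0.25 and 0.43 from the midpoint, with Cox6b2 (-0.17) and Atp5d, a stalk subunit of the ATP synthase (-0.16), among the lowest and Cox7a1 (0.43) and Atp5g3 (0.33) highest; none of these passed. The value of -0.25 is that of Cox8b, whose probe was well above background on 3 of 5 (B6x129S1)F1 and 2 of 5 (129S1xB6)F1 arrays and passed the filter through the inbred strains, so its place in this order is not firm. On the linear scale the (B6x129S1)F1 arrays had a Cox7c ratio of 1.68 ± 0.25 (SD, n = 5) and the (129S1xB6)F1 arrays one of 1.61 ± 0.30. Parental ratios were 0.325 ± 0.060 for C57BL/6J and 2.62 ± 0.72 for 129S1/SvImJ. The hybrid mean of 1.64 exceeded the linear midpoint of 1.47 by 0.17 with an SE of 0.18, so the departure from the midpoint was seen on the log2 scale and lay within its error on the linear scale. The log2 call was lost with slide as a block (0.79, adjusted p = 0.127) and without the arrays of slide 5 (0.83, adjusted p = 0.0793). The probe TC1410591 lay 0.21 ± 0.16 (SE) above the log2 midpoint and did not pass the test (adjusted p = 0.685 by limma); its hybrids were 2.11-fold higher than 129S1/SvImJ (1.08 ± 0.19, adjusted p = 0.00396) and 1.57-fold lower than C57BL/6J (-0.65 ± 0.19, adjusted p = 0.101, not past the threshold).

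The reciprocal hybrids did not differ in any of the 81 members by limma at an adjusted p of 0.05, and none passed at an unadjusted p of 0.05 either. The background in this comparison was 0.00831% of genes called, and 881 of the 24057 genes passed unadjusted. Differences, (B6x129S1)F1 minus (129S1xB6)F1, ran from -0.20 (Atp5b) to 0.25 (Atp5k), with 59 members above 0 (29 of 35 in complex I), and every 95% interval lay within a doubling. The median over the members was 0.06, next to 0.02 over all genes. This lean was not particular to the members: of the 75 mitochondrial ribosomal proteins described below, 62 were above 0, with a median of 0.08. The next most extreme were Atp5a1 (-0.16) and Ndufb8 (-0.13) below 0 and Atp5j (0.24) and Ndufa2 (0.23) above it. Cox7c differed by 0.07, with an interval of -0.30 to 0.45. A test for any difference among the 4 groups called 4 members (Cox7c, Ndufa11, Cox6b2 and Sdhb; 4.94%), next to 3.79% of all genes.

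Relative to the reference pool, most members were near equality. Over the 20 arrays 35 of 81 members (43.2%) were above 0, next to 60.8% of all genes, and the median was -0.09, next to 0.12. Mean log2 ratios lay within 0.5 of 0 for 65 members (80.2%, next to 71.3% of all genes). Furthest below this band were muscle isoforms of complex IV: Cox6a2 averaged -2.41, or 0.188 of the pool's signal, with arrays between -3.25 and -1.55, and Cox8b averaged -1.77. Both were below the pool on all arrays. The Cox8b probe was well above background in the gonad channel on 14 of 20 arrays, with a mean processed Cy5 signal of 83.9, so the size of its ratio is uncertain; Cox6a2 was well above background on every array. The mean of the muscle markers Myog, Myh3, Actc1, Tnnt2 and Ckm was also low, between -2.65 and -1.15 on each array, though Ckm alone averaged 0.21. Cox7a1, usually counted with the same muscle forms, averaged 0.51 and was among the 5 highest members.

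**Figure D3:**
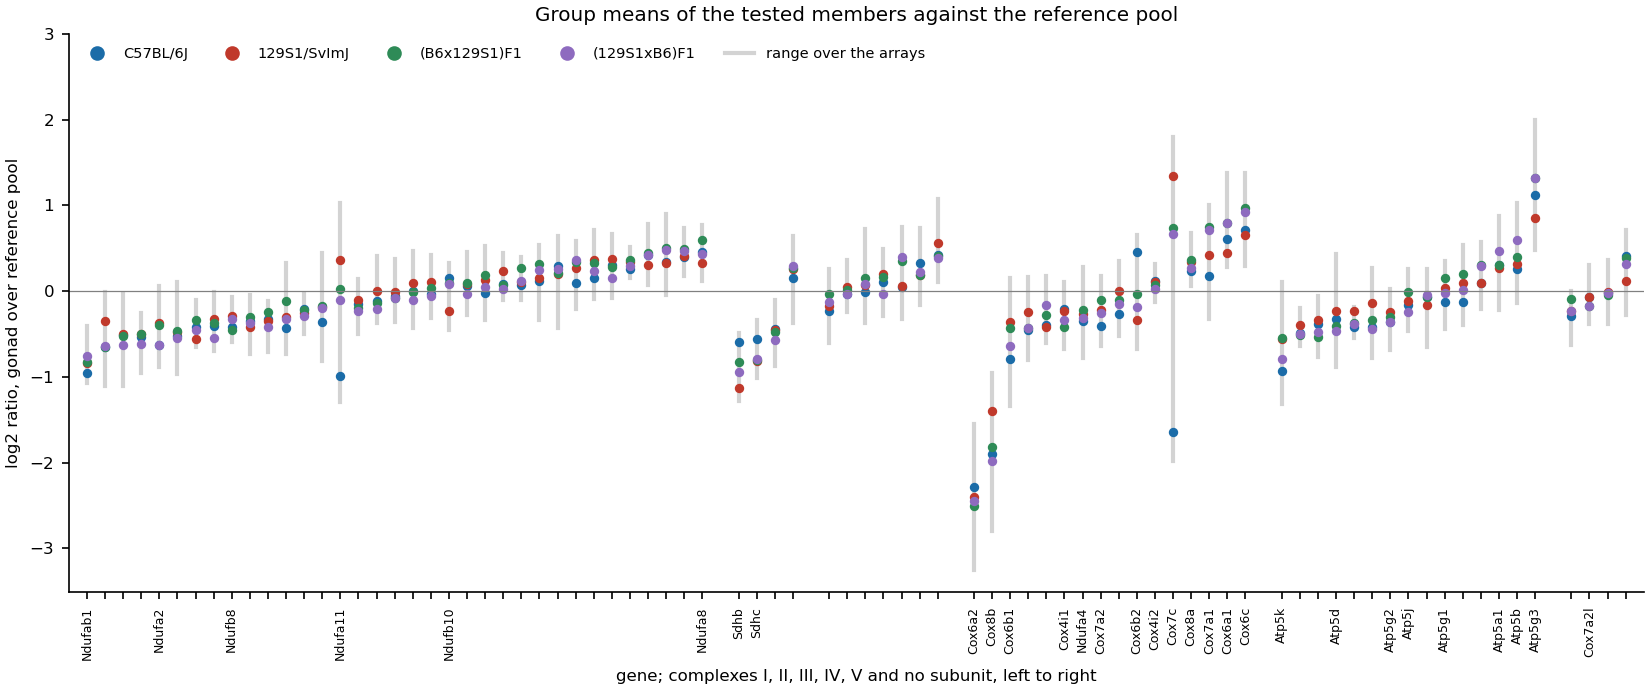
Mean log2 ratio of gonad over reference pool for the 81 tested members in each of the 4 groups (coloured points), ordered within complexes I to V and the non-subunits, a selection of them labelled, with grey bars for the range over the 20 arrays. Most points lie within 0.5 of 0; Cox6a2 (-2.41 on average) and Cox8b (-1.77) lie lowest, Atp5g3 (1.15) highest, and the points of Cox7c and Ndufa11 are spread widest between the strains.

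The paired isoforms differed in their ratio to the pool. Cox6a1 averaged 0.66 where Cox6a2 was at -2.41, and Cox8a averaged 0.30 where Cox8b was at -1.77. Cox4i1 averaged -0.30 and Cox4i2 0.08, and Cox7a2 averaged -0.25. Of the 3 genes encoding the same c-ring protein of the ATP synthase, Atp5g3 was highest of all members at 1.15, or 2.23 times the pool, while Atp5g1 averaged 0.01 and Atp5g2 -0.31. These ratios say nothing of which isoform was more abundant in the gonad, since each compares 1 probe with itself in the pool. The remaining high members were Cox6c (0.81) and Ndufa8 (0.45), and the remaining low ones Sdhb (-0.87), Ndufab1 (-0.84), the mitochondrial acyl carrier protein, and Sdhc (-0.74). Of complex II, only Sdha was above the pool (0.24).

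Cox8c, the testis isoform of subunit VIII, was near background. Its probe was well above background on 3 of 5 arrays of (129S1xB6)F1, on 1 of 5 of each of (B6x129S1)F1 and 129S1/SvImJ, and on no C57BL/6J array. Mean processed Cy5 signals were 49.6, 43.3, 28.4 and 16.7 in this order, and no fold is given.

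The members also shifted together from array to array within a group. Among the 129S1/SvImJ arrays, A3 had a member median of 0.12, with 67 of 81 members above their group mean, and G3 had -0.33, with 12 above. The median over all tested genes was 0.15 on A3 and 0.03 on G3, a narrower gap than that of the members. Over the groups, member medians averaged -0.07 ± 0.19 (SD, n = 5) for 129S1/SvImJ and -0.13 ± 0.10 for C57BL/6J. They averaged -0.05 ± 0.13 for (B6x129S1)F1 and -0.13 ± 0.09 for (129S1xB6)F1, and all 4 groups overlapped. The median strain difference of the members was -0.17 on slide 1, -0.02 on slide 2, -0.11 on slide 3 and 0.16 on slide 4, so no common direction held over the slides. The residual SD of a member within groups had a median of 0.22, next to 0.24 for all genes, from 0.08 for Atp5o to 0.53 for Cox6a2.

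**Figure D4:**
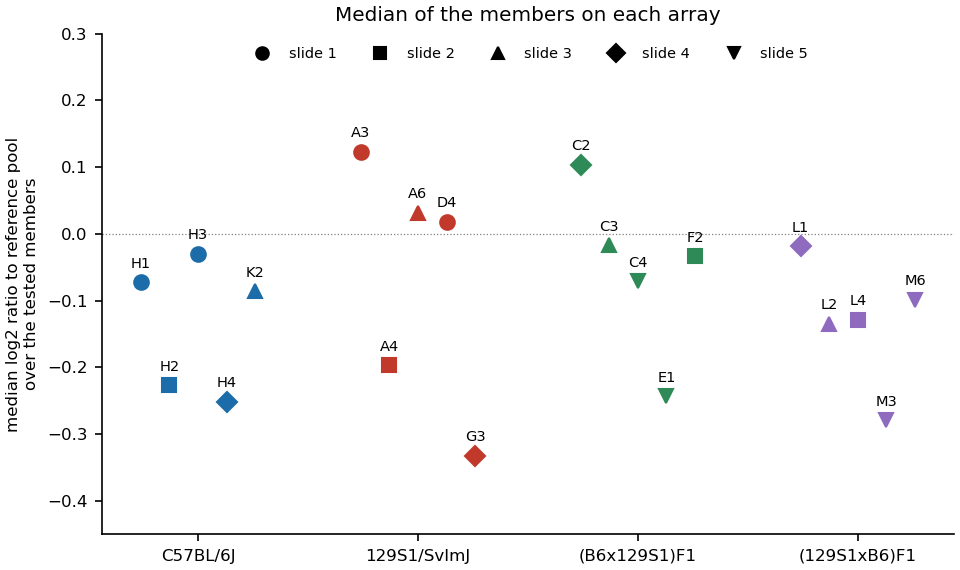
Median log2 ratio to the reference pool over the 81 tested members on each of the 20 arrays, by group, with marker shapes for the 5 slides and replicate codes above the points. Arrays of every group overlap, and within 129S1/SvImJ the medians run from -0.33 (G3) to 0.12 (A3).

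Other genes of mitochondrial energy metabolism were taken from fixed lists. The counts below stand next to 5.56% of all genes called between the strains. Among 22 tested electron carriers and assembly factors outside the name rule, 2 were higher in C57BL/6J: Acad9, a complex I assembly factor, by 0.94 ± 0.10 (SE; adjusted p = 2.85e-06 by limma), and Tmem126b, another, by 0.45 ± 0.11 (adjusted p = 0.0128). Of 17 genes of the citric acid cycle and pyruvate dehydrogenase, Dlat, the acetyltransferase of the pyruvate dehydrogenase complex, was higher by 0.80 ± 0.16 (adjusted p = 0.00267) and no gene was lower. Of 15 genes of mitochondrial biogenesis, among them Tfam, Nrf1 and Ppargc1a, none was called by limma after adjustment and 2 passed at an unadjusted p of 0.05. Of 16 carriers and membrane proteins, Tomm22, a receptor of the outer-membrane import pore, was higher by 1.54 ± 0.15 (adjusted p = 6.26e-07), and Nnt, the proton-pumping transhydrogenase in which C57BL/6J carries a known deletion, was lower by 0.72 on the log2 scale (-0.72 ± 0.13, adjusted p = 9.78e-04). Of 75 mitochondrial ribosomal proteins, Mrps12 (0.87 ± 0.17, adjusted p = 0.00321) and Mrpl9 (0.34 ± 0.08, adjusted p = 0.0134) were higher and Mrpl3 (-0.60 ± 0.13, adjusted p = 0.00662) lower. The list medians were 0.10, 0.01, 0.04, -0.11 and -0.01 in this order, next to 0.01 over all genes.

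No probe carried the name of a mitochondrially encoded subunit. By their descriptions, chosen after the values could be seen, 1 probe reads cytochrome c oxidase subunit II and 1 reads NADH dehydrogenase subunit 4. Their strain differences were -0.55 ± 0.30 (SE; adjusted p = 0.438 by limma) and -0.44 ± 0.16 (adjusted p = 0.136), and neither passed the test. For subunit II, the C57BL/6J arrays H1, H2, H3 and H4 were at -0.02, -0.10, -0.06 and 0.65, while K2 was at -1.82. The size of the subunit II difference therefore depends strongly on K2. That array was also the lowest of C57BL/6J for subunit 4 (-0.95).

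The RefSeq promoter table (build GRCm38.p6) held 67 of the 82 members by symbol or synonym. In the 250 bases before the annotated start, 3 motifs known from genes of the respiratory chain were searched on both strands: the NRF1 core GCATGCGC, the ETS core CCGGAAG and the YY1 core AAGATGGC. The NRF1 core was in 8 members' windows (11.9%), next to 2.32% of all 27025 promoters, and the ETS core in 12 (17.9%), next to 7.05%. The YY1 core was in none, next to 1.59%. Of the members called between the strains, Ndufa11 and Sdhb held the NRF1 core, and their differences had opposite signs; Cox7c, Cox6b2 and Ndufb10 held none of the 3 in this window. The 120 bases before the start of 3 called members are shown for comparison, 5′ to 3′ on the gene's strand, with the NRF1 core in capitals; in Ndufa11 the core on both strands overlaps in a palindrome. They lie at chr13:86046796-86046915 (minus strand, Cox7c), chr17:56717642-56717761 (plus strand, Ndufa11) and chr4:140961151-140961270 (plus strand, Sdhb).
Cox7c: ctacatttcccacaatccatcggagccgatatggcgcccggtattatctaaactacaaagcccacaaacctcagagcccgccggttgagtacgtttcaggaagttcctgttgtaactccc
Ndufa11: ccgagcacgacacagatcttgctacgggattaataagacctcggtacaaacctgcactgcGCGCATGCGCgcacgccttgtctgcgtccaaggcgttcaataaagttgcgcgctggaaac
Sdhb: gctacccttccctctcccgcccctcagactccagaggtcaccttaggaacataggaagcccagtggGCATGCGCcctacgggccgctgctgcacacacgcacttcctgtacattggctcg
A match says only that these letters stand in the window of the reference strain; binding and sequence variation between the strains were not measured.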

How the data were processed

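Two-colour Agilent arrays of 20 XY gonad samples were analysed. Per the file headers, the authors extracted spot intensity values with Agilent Feature Extraction 9.1.3.1, whose processed signals are background-corrected and dye-normalised; the deposited log2 ratios of the series table were an alternative (correlation with the processed ratios 0.935 to 0.96 per array). Log2(Cy5/Cy3) of the processed signals was computed here, spots with outlier flags were left out, spots of a probe were averaged and the brightest probe per gene name was kept. Group means were fitted with limma 3.58.1 in R 4.3.3 over all arrays (16 residual degrees of freedom), without covariates. Alternatives covered background and normalisation, dim-probe filters, probe choice, slide or sample-name letter (a possible litter) as a block, the prior, the arrays in the fit and each array left out. In data simulated for the strain comparison over 24057 genes, 43 of 50 genes lowered by 1 (log2) and 40 of 50 raised by 1 were called. Of 50 genes raised by 0.5, 14 were called. The simulated noise was independent between genes and arrays, without slide effects or shifts of whole arrays. Fewer genes were changed in it than were called in the real comparison, so these rates need not hold there. Named members were those called, the 3 most extreme in each direction per comparison, complex IV and c-ring isoforms, and the 5 highest and lowest against the pool. Members and lists were chosen with earlier results of these data known.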

Additional observations from a re-analysis of the deposited data

Results flagged for a closer look

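Over 31 named members, 124 groups of 5 arrays were examined for a single array far from the other 4, and 10 had one by Dixon's criterion at 95%, which chance alone meets in about 1 group of 20. In C57BL/6J, replicate K2 was low for Cox6b2 (-0.029, the others 0.47 to 0.65) and for Cox6b1 (-1.34, the others -0.69 to -0.59), and replicate H4 was low for Sdhb (-0.86, the others -0.57 to -0.49) and for Cox7a2l (-0.39, the others -0.02 to 0.04). In 129S1/SvImJ, replicate D4 was high for Ndufb8 (-0.074, the others -0.37 to -0.29) and for Sdhc (-0.41, the others -0.98 to -0.84). In (B6x129S1)F1, Ndufb8 was high in C2 (-0.14, the others -0.59 to -0.49) and Atp5g3 was high in C3 (2.00, the others 1.09 to 1.20). In (129S1xB6)F1, Ndufa11 was low in M3 (-0.34, the others -0.08 to -0.01) and Atp5g2 was high in L1 (-0.14, the others -0.48 to -0.39).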

How the results depend on the processing

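The strain calls of Cox7c, Ndufa11, Sdhb and Cox6b2 were kept in all 32 alternative fits (Cox7c between -3.12 and -2.82). That of Ndufb10 was kept in 23. No member difference called in the main fit changed sign in these fits, and the signs of uncalled differences were not followed. The numbers of members called between the strains, between the reciprocal hybrids, against C57BL/6J and among any groups stayed within 1.5 times. Against 129S1/SvImJ, 1 member was called as reported, 2 without the dim-probe filter (Cox8c added), 0 with slide or letter as a block, 0 with only the arrays compared, 0 without slide 5, and 0 to 1 when each array was left out. Against the midpoint, 1 was called, 2 without the filter, 0 with slide as a block and 0 without slide 5, where Cox7c was at 0.79 (adjusted p = 0.127) and 0.83 (adjusted p = 0.0793). Over all genes, calls against the midpoint fell from 78 to 29 with slide as a block, 36 with the letter block and 13 without slide 5, and ranged from 43 to 112 with each array left out. Calls against C57BL/6J fell from 508 to 298 with the letter block and 294 without slide 5, and against 129S1/SvImJ from 394 to 243 with slide and 212 without slide 5 (251 to 456 with each array left out). Calls among any groups fell from 911 to 544 with the letter block, and the 2 reciprocal calls to 0 under normexp with loess and without slide 5, and to 1 with every array required well above background. Leaving out slide 5, an alternative chosen after seeing the data, removes 4 of 10 hybrid arrays; other causes were not tested. No paired analysis was possible by replicate, because the replicate codes are not shared between groups; the slide was used for matching in its place.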
